A study of Homo sapiens with 18 samples.

Results

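H226 is a human pleural mesothelioma cell line that lacks the Hippo pathway tumor suppressor NF2, and VT107 is a small molecule that blocks the palmitoylation of TEAD transcription factors. H226 cells in RPMI medium with 10% fetal bovine serum were given 1 µM VT107 or the solvent DMSO, and RNA labelled as polyA RNA was sequenced 24 h later. There were 3 biological replicates of each group, 6 of the 18 libraries of the series, and the comparison was made over every gene with a row in the H226 table, which is 19284 of the 30954 gene IDs of the series. H226 stands for 1 line cultured in 1 medium, and no drug other than VT107 was used in these 6 libraries.

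After VT107, counts of genes that run mitosis were lower almost throughout the list, with the spindle and checkpoint genes BUB1, ASPM, CENPE and KIF18B lower by 2.51 to 2.94-fold. Of the DNA replication genes 10 of 30 fell, and of the ribosome biogenesis genes 12 of 31. Of the amino acid transporter and stress genes 7 of 17 fell and 2 rose. For comparison, of all 6501 genes tested that share no bases with an opposite-strand gene, 9.6% fell and 8.41% rose. Among single genes, the coagulation initiator F3 and the matrix gene MFAP5 fell the most of the known TEAD targets and matrix genes examined, and the atrophy-linked ubiquitin ligase FBXO32, the netrin receptor UNC5C and the mesothelial mucin MUC16 rose. Cell surface genes moved in both directions, with the integrin subunits ITGB6 and ITGB8 higher and the receptor tyrosine kinase AXL lower.

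The Hippo pathway is a kinase cascade in which NF2 helps to activate LATS kinases, and these hold the coactivators YAP and TAZ out of the nucleus. Without that restraint YAP and TAZ bind TEAD proteins on DNA and switch on genes for growth, adhesion and matrix. Palmitate sits in a pocket of the TEAD proteins, and compounds that keep it out weaken YAP/TAZ-driven transcription. In the pleura, loss of NF2 is common in mesothelioma.

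How these counts relate to each gene had to be settled first. The counts of the H226 table follow the strand opposite to the gene. In 14 of 14 pairs in which an abundant gene lies inside a little-counted gene of the other strand and both have a row, the H226 libraries gave more counts to the outer gene, and in 4 further pairs the abundant gene has no row. Abundant and little-counted were judged from the parental H2052 DMSO libraries, not from H226. For example, RPL32 had a mean count of 35600 in parental H2052 DMSO and 2.5 in H226. CAND2, which holds it, had 1.67 and 18410. Of the 19284 genes, 8781 share bases with an opposite-strand gene and 10503 do not, and the findings given here rest on the latter, whose share of all counts was 32 to 35.1% in DMSO and 33.9 to 36.3% in VT107. In the later annotation GENCODE 29, 3306 of the 10503 do share bases with one. Of the genes named below outside the 24 largest changes these are ASAP1, AXL, DOCK5, PTPN14, FOXO1, ERRFI1, EPHA4, ROBO1, TGFBR1, TCF7L1, APC, GLI3, GLI2, SUFU, ITGB8, LAMA3, ACTN1, PKP2, RPA1, RBL1, BCL2, WDR43, RPS6, HMGCS1, ACLY, SCD5, HK2, SLC7A5, MANBA, TNFRSF9, ICAM1, IRF2, BRAF and ADAMTS6. Even without overlap a count is not a plain mRNA level. Over 10503 genes the mean DMSO count had a Spearman correlation of 0.417 with the span of the gene and of 0.533 with the count in parental H2052 DMSO libraries, while the H2052 count had 0.027 with the span. These are correlations across genes, which share libraries and are not independent replicates. Where the reads on the opposite strand of a gene come from was not tested, so "count of a gene" below means reads on the strand opposite to it.

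The 6 libraries summed to 1387223 to 1726786 counts. The edgeR quasi-likelihood test was run on 12765 genes with a CPM (read counts scaled to library size with TMM factors) of at least 0.5 in all 6 libraries, and 19.6% of them passed an adjusted p (Benjamini-Hochberg over all genes tested) of 0.05. Among the 6501 genes tested that no opposite-strand gene overlaps, 547 rose (8.41%) and 624 fell (9.6%), and their median log2 fold change was -0.02. Of these, 260 rose and 271 fell by more than 2-fold. Each list count below is to be read beside the shares of 8.41% and 9.6%. These shares are only a rough comparison, as 4.28% of genes up to 10 kb rose and 16.5% of those over 300 kb. The median span of a list went from 5692 bases for ribosomal proteins to 222269 bases for guidance receptors and ligands. The lists were also chosen with earlier results of these data known. In 16% of the 6501 genes every VT107 library lay above every DMSO library, and in 17.7% every VT107 library lay below. Without VT107 replicate 3 the count over all 12765 genes was 1646 instead of 2501.

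As a check of the label, the 10 mesothelial defining markers summed to 3332 to 3541 counts in DMSO and 4223 to 4720 in VT107, with CALB2 at 307 to 838 and KRT19 at 195 to 645 counts. Leukocyte, endothelial and fibroblast markers with a row summed to 2 to 6 counts per library for each list, with none above 10 in any library. Only 3 of 10 leukocyte, 5 of 8 endothelial and 4 of 8 fibroblast markers have a row. The fibroblast marker THY1 has none, and the row of RP11-305N23.1, read below as the strand of THY1, had 224 to 346 counts per library. These low sums therefore do not show that transcripts of such cells are absent. Squamous epithelium markers, listed because H226 has been catalogued as a lung squamous line, summed to 41 to 114, of which the desmosomal gene DSC3 gave 30 to 96. MSLN, WT1, UPK3B, KRT8 and KRT18 share bases with an opposite-strand gene. Of these MSLN gave 1488 to 1938 and UPK3B 596 to 803 counts per library, a large part of the mesothelial sum. WT1 gave 107 to 183, KRT8 37 to 55 and KRT18 0 to 5. The mesothelial counts lie on the opposite strand too, so their sum does not establish the label. All these sums are raw counts, not scaled to library size. NF2 itself was not among the genes that passed the filter on low counts.

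**Figure D1:**
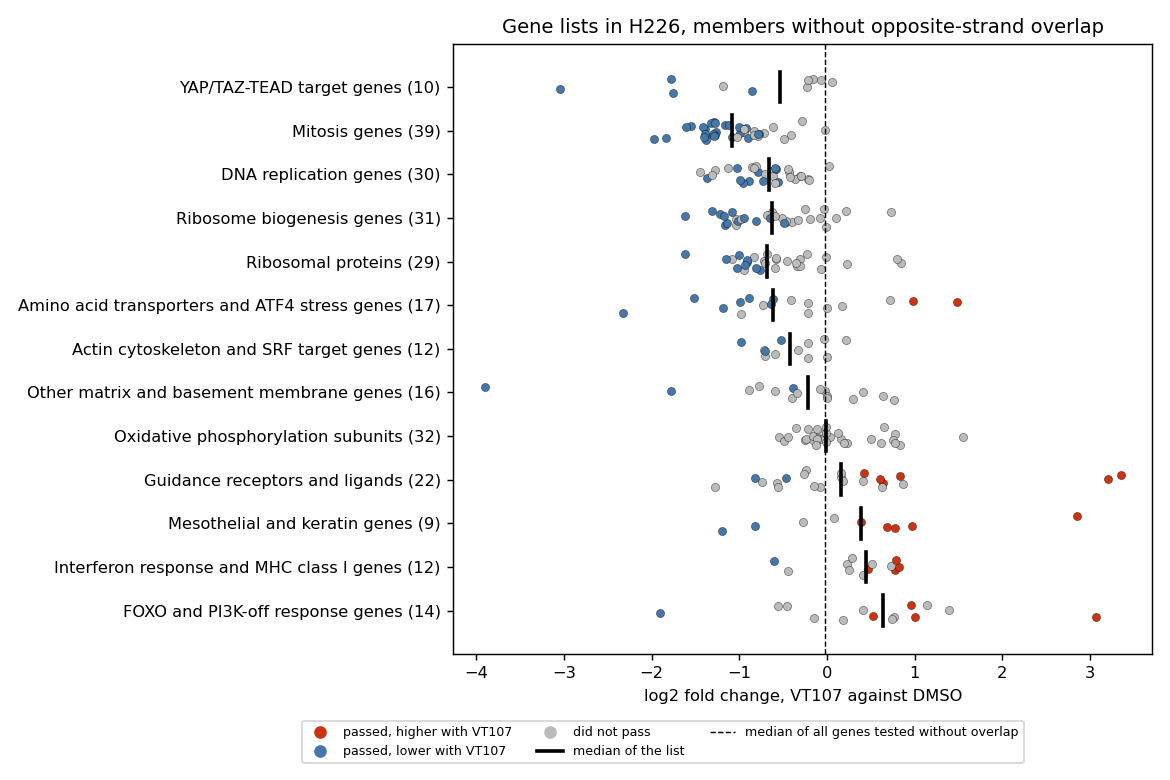
Change with VT107 (log2 fold change over DMSO) of the members of gene lists in H226, for members without opposite-strand overlap, whose number stands in parentheses. Points are genes, black bars list medians and the dashed line the median of all genes tested without overlap (-0.02); the mitosis list has its median at -1.08 and no point above 0, and the FOXO list its median at 0.64.

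Counts of genes that act in mitosis lay below 0 throughout the list. Of 67 listed genes, 66 have a row, 59 were tested and 39 of these are not overlapped. All 39 had a log2 fold change below 0, from -1.97 to -0.03 with a median of -1.08, and 27 fell while none rose, against 9.6% of all such genes that fell. Among the 20 overlapped members 14 fell and none rose. The summed CPM of the 39 genes was 2207, 2095 and 2240 in the DMSO libraries and 1313, 1124 and 1017 in the VT107 libraries. In every library of the treated group it was therefore below each DMSO library, and it was higher in VT107 replicate 1 than in the other two.

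BUB1, a kinase of the spindle checkpoint (ENSG00000169679, chr2:111395275-111435691 of hg19), had counts of 130, 120 and 139 in DMSO and 70, 45 and 41 in VT107. Its level went from 90.9 ± 15.6 to 30.6 ± 6.99 CPM (SD, n = 3 each; log2 fold change -1.55, SE 0.19, adjusted p = 2.56e-06). ASPM, which organizes spindle poles (ENSG00000066279, chr1:197053258-197115824 of hg19), had counts of 180, 158 and 142 in DMSO and 91, 58 and 63 in VT107. The change was from 111 ± 5 to 41.7 ± 7.12 CPM (log2 fold change -1.40, SE 0.16, adjusted p = 1.21e-06). For CENPE, a motor protein of the kinetochore, the counts were 141, 146 and 112 in DMSO and 72, 54 and 53 in VT107 (log2 fold change -1.38, SE 0.16, adjusted p = 1.87e-06). KIF18B, a kinesin that shortens astral microtubules, had 246, 178 and 153 in DMSO and 124, 74 and 70 in VT107 (log2 fold change -1.33, SE 0.18, adjusted p = 8.02e-06). In all 4 genes the groups do not overlap, and each kept its call in every alternative fit and without any 1 of the libraries.

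SMC4, a condensin subunit, gave a second view of this group from the other side. It lies inside RP11-432B6.3 on the opposite strand, so that the row of RP11-432B6.3 counts reads on the strand of SMC4. That row had counts of 3441, 3339 and 2635 in DMSO and 2347, 1884 and 2070 in VT107 and fell (log2 fold change -0.80, SE 0.14, adjusted p = 0.00022), although C3orf80 and RP11-431I8.1 lie on that strand too. The number of called mitosis genes was 19 to 28 without any 1 library, lowest without VT107 replicate 3, and 25 when each library's dependence on gene span was taken out. Where the reads on the strand opposite to the mitosis genes come from was not tested, so their rows may not measure these RNAs. In a culture, fewer cells passing through mitosis and less of these RNAs per cell cannot be told apart either.

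**Figure D2:**
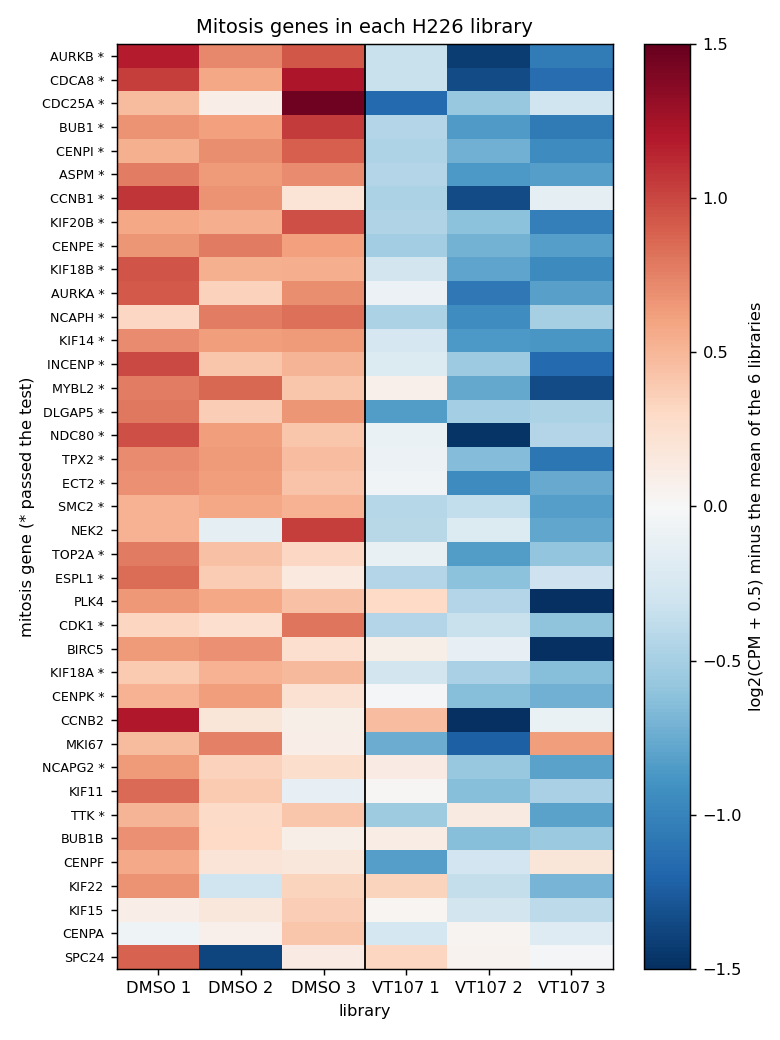
Level of each of the 39 mitosis genes without opposite-strand overlap in the 6 H226 libraries, as log2(CPM + 0.5) minus the mean of the 6 libraries (colors end at 1.5 in either direction), with an asterisk for the 27 genes that passed the test. The 3 DMSO columns are mostly above and the 3 VT107 columns mostly below the mean, with VT107 replicate 1 the palest of the treated libraries.

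Genes of DNA replication followed the same direction with smaller steps. Of 53 listed, 30 were tested and not overlapped, 29 of them lay below 0, 10 fell and none rose, and the median was -0.66. GINS1, a subunit of the replicative helicase, had counts of 120, 133 and 112 in DMSO and 85, 69 and 55 in VT107 (log2 fold change -1.03, SE 0.17, adjusted p = 0.000105). POLA2, the second subunit of DNA polymerase alpha, had 106, 103 and 108 in DMSO and 84, 63 and 54 in VT107 (log2 fold change -0.89, SE 0.18, adjusted p = 0.000761). RPA1, which coats single-stranded DNA, fell from 37.7 ± 1.98 to 19.4 ± 2.22 CPM (log2 fold change -0.95, adjusted p = 0.00246), and PRIM2, the large primase subunit, from 247 ± 15.8 to 164 ± 21.7 CPM (log2 fold change -0.59, adjusted p = 0.00321). In all 4 genes each VT107 library was below each DMSO library in CPM. The count of 10 was 6 without DMSO replicate 2 or without VT107 replicate 3. Among inhibitors of the cell cycle and targets of p53, 1 of 8 passed, the pocket protein gene RBL1, which fell (log2 fold change -1.02, adjusted p = 0.000433), and the list median was -0.18.

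The promoters of these genes are shown because their members moved together. RefSeq promoters on GRCh38.p14, a build other than the hg19 of the counts, were found for 24 of the 27 mitosis genes that fell. The letters CCAAT, the box bound by the factor NF-Y, stood on either strand within the 250 bases before the start site in 18 of the 24 (75%), compared with 33% of all 27305 promoters of the table and 35.4% of those of the tested genes without overlap. The letters TTTGAA, known as the CHR element of cell cycle genes, stood in 9 of the 24 (37.5%), compared with 13.6% and 9.32%. The mitosis list was not chosen for these letters. Of the 475 matched promoters of all genes without overlap that fell, 42.9% held CCAAT and 13.5% TTTGAA. Because TTTGAA is known from cell cycle genes, a high share in such a list says nothing about VT107. Mitosis genes that did not fall were not compared, so the share of CCAAT says nothing about VT107 either. A match is only a description of the sequence. ASPM (chr1:197146670-197146919, minus strand), BUB1 (chr2:110678064-110678313, minus strand) and KIF18B (chr17:44947774-44948023, minus strand) read as follows from 250 bases before the start site, with CCAAT or its complement ATTGG, and TTTGAA or its complement, in capitals.
ASPM: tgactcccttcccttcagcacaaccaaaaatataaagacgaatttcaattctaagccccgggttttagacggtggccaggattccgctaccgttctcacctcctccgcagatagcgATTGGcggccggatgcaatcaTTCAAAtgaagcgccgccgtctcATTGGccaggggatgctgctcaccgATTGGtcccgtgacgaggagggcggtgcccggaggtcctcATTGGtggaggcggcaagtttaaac
BUB1: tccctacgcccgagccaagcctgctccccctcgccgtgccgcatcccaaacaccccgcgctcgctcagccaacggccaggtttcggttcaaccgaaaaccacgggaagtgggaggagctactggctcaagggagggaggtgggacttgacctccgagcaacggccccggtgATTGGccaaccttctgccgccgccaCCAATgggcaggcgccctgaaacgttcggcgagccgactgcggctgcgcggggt
KIF18B: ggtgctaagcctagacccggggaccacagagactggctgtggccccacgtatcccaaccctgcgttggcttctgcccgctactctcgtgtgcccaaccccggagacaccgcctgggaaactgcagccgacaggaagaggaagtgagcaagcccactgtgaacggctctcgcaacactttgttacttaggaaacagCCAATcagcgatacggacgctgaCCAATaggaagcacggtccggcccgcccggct
ASPM holds 4 CCAAT boxes and 1 TTTGAA in this window, BUB1 and KIF18B 2 CCAAT boxes each, and the window of CENPE has neither.

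Lower counts were also seen for the machinery that makes ribosomes. Of 31 ribosome biogenesis genes tested without overlap, 28 lay below 0, 12 fell and none rose, and the median was -0.63, while 2 of the 35 overlapped members rose and 6 fell. PUS7, a pseudouridine synthase, had counts of 98, 81 and 63 in DMSO and 32, 26 and 33 in VT107 (log2 fold change -1.62, SE 0.20, adjusted p = 3.74e-06). NOP58, a core protein of box C/D small nucleolar particles, had 112, 91 and 101 in DMSO and 58, 45 and 50 in VT107 (log2 fold change -1.22, SE 0.18, adjusted p = 2.44e-05). The nucleolar helicase DDX21 went from 73.1 ± 8.73 to 32.4 ± 8.17 CPM (log2 fold change -1.18, adjusted p = 9.49e-05) and WDR43, a factor of early pre-rRNA processing, from 74.1 ± 9.1 to 36.6 ± 9.12 CPM (log2 fold change -1.01, adjusted p = 0.000403). Without VT107 replicate 3 the count of called members was 6 instead of 12.

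Genes for the ribosomal proteins themselves gave a divided picture. Of 29 tested without overlap, 9 fell and none rose, with a median of -0.68, and RPS24 had counts of 173, 211 and 269 in DMSO and 131, 121 and 151 in VT107 (log2 fold change -0.94, SE 0.18, adjusted p = 0.000698). RPS6 went from 47.9 ± 11.4 to 21.4 ± 5.02 CPM (log2 fold change -1.15, adjusted p = 0.000729). These counts are small for genes of this abundance. Where a ribosomal protein gene lies inside a gene of the other strand, the outer row counts reads on its strand with far larger counts, and none of 4 such rows passed. CAND2, which holds RPL32, had 16326, 18930 and 20124 counts in DMSO and 16649, 19864 and 18565 in VT107 (log2 fold change -0.24, adjusted p = 0.429). The log2 fold changes were -0.25 for IQCG around RPL35A, -0.24 for PIN4 around RPS4X and -0.03 for NKIRAS1 around RPL15 (adjusted p = 0.431, 0.426 and 0.938), with CITED1 and ERCC6L on the counted strand of PIN4 and NR1D2 on that of NKIRAS1. Without DMSO replicate 1, VT107 replicate 2 or VT107 replicate 3 the 9 calls were 4, 5 and 4. Subunits of oxidative phosphorylation, in comparison, had 32 members tested without overlap, none of which passed by edgeR, 18 lay below 0, and the median was -0.01. With 1 library left out, at most 1 of them passed (without DMSO replicate 2 or 3 or VT107 replicate 2).

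Transporters that bring amino acids into the cell were among the genes with lower counts. SLC7A5, the light chain of the large neutral amino acid transporter LAT1, had counts of 83, 50 and 89 in DMSO and 23, 15 and 14 in VT107 (log2 fold change -2.32, SE 0.28, adjusted p = 2.01e-06). Its partner chain SLC3A2 had 79, 67 and 48 in DMSO and 36, 26 and 37 in VT107 (log2 fold change -1.18, SE 0.21, adjusted p = 0.000317). The cationic amino acid transporter SLC7A1 fell from 64 ± 10.8 to 32.2 ± 5.48 CPM (log2 fold change -0.99, adjusted p = 0.000543) and the glutamine transporter SLC38A1 from 129 ± 22.8 to 69.5 ± 16.3 CPM (log2 fold change -0.89, adjusted p = 0.000607). Over the list of amino acid transporters and ATF4 stress genes, 7 of 17 fell, 2 rose and the median was -0.61. Sterol and fatty acid synthesis genes had 4 of 14 lower and none higher, with a median of -0.22. HMGCS1, which makes the precursor of mevalonate, went from 81.4 ± 3.33 to 47 ± 9.48 CPM (log2 fold change -0.80, adjusted p = 0.00157), and MSMO1, a sterol demethylation enzyme, from 58.3 ± 3.02 to 31.4 ± 7.84 CPM (log2 fold change -0.89, adjusted p = 0.00167). ACLY (log2 fold change -1.03, adjusted p = 0.00978) and SCD5 (log2 fold change -0.53, adjusted p = 0.0292) lost their calls without VT107 replicate 1, and SCD5 also with DESeq2 and without DMSO replicate 2 or VT107 replicate 2, and without VT107 replicate 1 the count of 4 was 2. In glycolysis, the hexokinase gene HK2 rose (log2 fold change 1.32, adjusted p = 0.0011), as did the enolase ENO2 (log2 fold change 1.24, adjusted p = 0.00593), while the phosphofructokinase PFKP fell (log2 fold change -1.13, adjusted p = 0.00731). The lactate dehydrogenase gene LDHA fell as well (log2 fold change -0.89, adjusted p = 0.0203), a call lost with DESeq2 and without DMSO replicate 1 or 3 or VT107 replicate 3. These are 2 rises and 2 falls among 13 genes, with a median of 0.17.

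The TEAD factors and their partners were counted as follows. TEAD4 had counts of 113, 99 and 96 in DMSO and 90, 71 and 52 in VT107, and the groups do not overlap (log2 fold change -0.76, SE 0.18, adjusted p = 0.00377). TEAD3 had 9, 17 and 26 in DMSO and 10, 10 and 18 in VT107, which overlap and did not pass (log2 fold change -0.68, adjusted p = 0.278). TEAD1 had by far the most counts of the 4 factors, 1469, 1302 and 1000 in DMSO and 2132, 1357 and 1445 in VT107 (log2 fold change 0.16, adjusted p = 0.503), and TEAD2 at most 4 in any library. YAP1 rose with counts of 327, 285 and 213 in DMSO and 513, 374 and 429 in VT107 (log2 fold change 0.46, adjusted p = 0.0205), a call lost without DMSO replicate 2 or 3 or VT107 replicate 1 or 3. WWTR1, which encodes TAZ, rose with 143, 116 and 92 in DMSO and 246, 168 and 199 in VT107 (log2 fold change 0.58, adjusted p = 0.00739). TEAD1, TEAD2, YAP1, WWTR1 and VGLL4 are overlapped by genes of the opposite strand, so reads on that strand may come from the gene or its partner and cannot be told apart. VGLL4, a repressive TEAD cofactor, had log2 fold change 0.15 (adjusted p = 0.549).

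Of 22 listed YAP/TAZ-TEAD target genes, 15 have a row, 14 were tested and 10 of these are not overlapped. Of the 10, 4 fell and none rose, and their median was -0.54. CTGF, CYR61, ANKRD1 and IGFBP3 are among those with no row. F3, the receptor that starts coagulation (ENSG00000117525, chr1:94994781-95007356 of hg19), had counts of 116, 72 and 70 in DMSO and 14, 14 and 8 in VT107. This was a change from 59.2 ± 13.7 to 7.15 ± 2.11 CPM (log2 fold change -3.04, SE 0.27, adjusted p = 2.15e-08). AXL, a receptor tyrosine kinase for GAS6, had 74, 63 and 63 in DMSO and 24, 23 and 22 in VT107 (log2 fold change -1.75, SE 0.22, adjusted p = 3.53e-06), and the secreted matrix protein CCDC80 had 389, 283 and 195 in DMSO and 121, 69 and 102 in VT107 (log2 fold change -1.78, SE 0.18, adjusted p = 2.05e-07). NUAK2, a kinase related to AMPK, had 33, 33 and 21 in DMSO and 25, 17 and 14 in VT107 (log2 fold change -0.85, SE 0.29, adjusted p = 0.0405), and its call was lost with DESeq2, with an offset for gene span and without DMSO replicate 1 or 2 or VT107 replicate 2 or 3. In CPM the groups do not overlap in any of these 4. The other members without overlap ranged from -1.18 for NT5E to 0.06 for ASAP1. MYOF, DOCK5, PTPN14 and ASAP1, which had 406 to 1811 counts in each library, had log2 fold changes of -0.16, -0.23, -0.22 and 0.06 and did not pass (adjusted p = 0.465, 0.316, 0.283 and 0.82), and their standard errors were 0.13 to 0.15. TGFB2, at 1 to 5 counts, could show little.

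The letters GGAATG, the core of the TEAD site, stood within the 250 bases before the start of 1 of these 4 genes, compared with 11.9% of all promoters and 10.3% of those of the 475 genes that fell and could be matched. The AP-1 site TGANTCA stood in 1 of the 4, compared with 6.6% of all promoters. TEAD sites are known to lie mostly in distant enhancers, which these windows do not cover. NUAK2 (chr1:205321746-205321995, minus strand) and F3 (chr1:94541760-94542009, minus strand) are shown because they hold these letters, with GGAATG or its complement CATTCC, and TGANTCA, in capitals.
NUAK2: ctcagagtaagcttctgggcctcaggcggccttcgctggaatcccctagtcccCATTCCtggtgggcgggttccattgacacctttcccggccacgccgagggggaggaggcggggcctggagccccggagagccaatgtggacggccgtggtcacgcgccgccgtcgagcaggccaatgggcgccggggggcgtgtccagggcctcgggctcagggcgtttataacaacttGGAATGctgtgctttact
F3: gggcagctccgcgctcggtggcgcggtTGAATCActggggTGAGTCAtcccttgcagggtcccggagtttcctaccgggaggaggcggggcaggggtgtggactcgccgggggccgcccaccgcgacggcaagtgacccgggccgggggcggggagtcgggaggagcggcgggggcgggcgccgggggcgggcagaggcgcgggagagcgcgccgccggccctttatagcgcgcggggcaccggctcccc
NUAK2 has 2 of the TEAD letters, 1 of them just before the start site, F3 has 2 AP-1 sites, and the windows of AXL and CCDC80 have neither.

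Upstream in the pathway, 2 of 14 Hippo kinases and scaffolds fell and none rose, with a median of -0.16. Of all genes without overlap 9.6% fell. The giant cadherin FAT1 went from 124 ± 6.76 to 79.5 ± 5.88 CPM (log2 fold change -0.64, adjusted p = 0.00202), and the kinase STK4 had log2 fold change -0.67 (adjusted p = 0.0363) with overlapping groups, a call lost with DESeq2 and without DMSO replicate 1 or 2 or VT107 replicate 2 or 3. LATS2, itself a listed target and overlapped by its antisense RNA, fell (log2 fold change -1.19, adjusted p = 3.98e-06), as did CRIM1 (log2 fold change -0.69, adjusted p = 0.0014), which AC007401.2 overlaps.

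**Figure D3:**
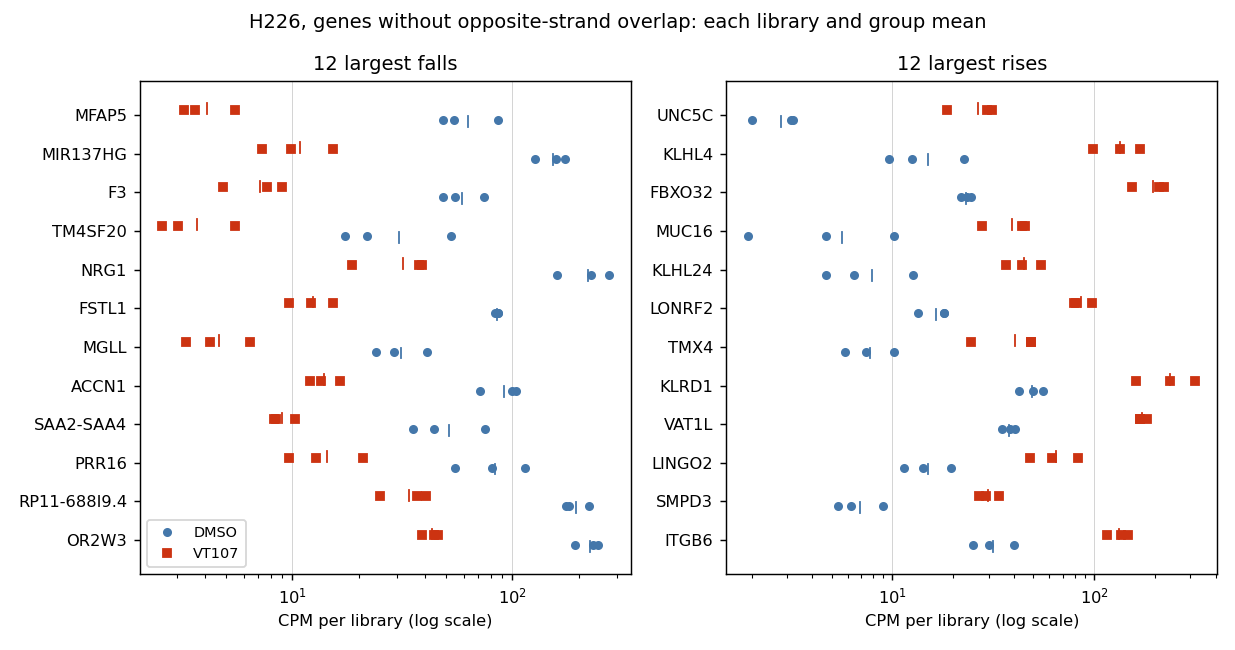
CPM (log scale) of the 12 genes with the largest falls and the 12 with the largest rises among those without opposite-strand overlap, with each library as a point (DMSO circles, VT107 squares) and the group mean as a short bar. The groups do not overlap in any of the 24, which the choice of genes required; MFAP5 lies near 60 CPM in DMSO and near 4 in VT107.

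The genes with the largest falls included proteins of the matrix and membrane and noncoding RNAs. They were chosen among genes that passed the test, lay at a log2 CPM of 4 or above on average and did not overlap between groups, so that their size is a description. MFAP5, a protein of elastic microfibrils, had counts of 134, 72 and 69 in DMSO and 10, 5 and 6 in VT107 (log2 fold change -3.90, SE 0.31, adjusted p = 5.28e-09). MIR137HG, the noncoding host gene of the microRNA miR-137, had 198, 235 and 221 in DMSO and 18, 24 and 12 in VT107 (log2 fold change -3.82, SE 0.21, adjusted p = 2.32e-11). TM4SF20, a tetraspanin-like membrane protein, had 34, 26 and 67 in DMSO and 10, 4 and 5 in VT107 (log2 fold change -2.97, adjusted p = 2.75e-05), with DMSO replicate 3 above the other DMSO libraries and a log2 fold change of -2.36 without it. The growth factor NRG1, a ligand of ERBB3, had 247, 341 and 351 in DMSO and 34, 59 and 64 in VT107 (log2 fold change -2.81, adjusted p = 4.63e-09). FSTL1, a secreted glycoprotein, had 134, 128 and 106 in DMSO and 28, 19 and 16 in VT107 (log2 fold change -2.76, adjusted p = 1.57e-09).

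MGLL, which cleaves the endocannabinoid 2-arachidonoylglycerol, fell from 31.2 ± 8.55 to 4.63 ± 1.59 CPM (log2 fold change -2.74, adjusted p = 2.74e-06). ACCN1, now called ASIC2 and encoding an acid-sensing ion channel, fell from 91.7 ± 17.8 to 14 ± 2.23 CPM (log2 fold change -2.71, adjusted p = 4.09e-09). PRR16 fell from 83.4 ± 29.9 to 14.4 ± 5.76 CPM (log2 fold change -2.52, adjusted p = 3.65e-07). SAA2-SAA4, a readthrough of serum amyloid A genes, fell from 51.5 ± 21 to 8.97 ± 1.1 CPM (log2 fold change -2.53, adjusted p = 1.18e-06), and SAA2 and SAA4 overlap it on the same strand with at most 7 counts each, so that their reads are uncertain. The long noncoding RNA RP11-688I9.4 fell from 194 ± 26.5 to 34 ± 8.09 CPM (log2 fold change -2.50, adjusted p = 6.05e-10) and lies within KIRREL3 on the same strand, whose own count fell too (log2 fold change -2.50, adjusted p = 2.86e-11). OR2W3, named as an olfactory receptor gene, fell from 224 ± 27.4 to 43 ± 3.63 CPM (log2 fold change -2.38, adjusted p = 1.65e-10), and TRIM58 overlaps it on the same strand with 1 to 19 counts. In GENCODE 29 a gene of the opposite strand overlaps 6 of these 12 genes, MFAP5, NRG1, FSTL1, MGLL, ACCN1 and PRR16.

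Among the largest rises, UNC5C, a receptor for the guidance molecule netrin, had counts of 5, 3 and 4 in DMSO and 34, 49 and 49 in VT107 (log2 fold change 3.21, SE 0.38, adjusted p = 2.02e-06). KLHL4, a kelch family gene on the X chromosome, had 15, 34 and 16 in DMSO and 180, 210 and 281 in VT107 (log2 fold change 3.15, SE 0.25, adjusted p = 4.63e-09). FBXO32, the muscle atrophy ubiquitin ligase known as atrogin-1 and a FOXO target, had 38, 35 and 28 in DMSO and 384, 242 and 370 in VT107 (log2 fold change 3.07, SE 0.18, adjusted p = 3.71e-11). MUC16, the mucin measured clinically as CA125, had 3, 7 and 13 in DMSO and 80, 71 and 46 in VT107 (log2 fold change 2.85, SE 0.35, adjusted p = 3.53e-06), and without DMSO replicate 3 its log2 fold change was 3.54. KLHL24, an adaptor of a ubiquitin ligase, rose from 7.95 ± 4.22 to 44.9 ± 8.98 CPM (log2 fold change 2.47, adjusted p = 1.87e-06), LONRF2 from 16.5 ± 2.67 to 86.3 ± 10.2 CPM (log2 fold change 2.39, adjusted p = 1.03e-08) and the thioredoxin-related membrane protein TMX4 from 7.78 ± 2.23 to 40.7 ± 13.9 CPM (log2 fold change 2.39, adjusted p = 7.38e-06).

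KLRD1, a receptor chain known from natural killer cells, rose from 49.2 ± 6.59 to 239 ± 77.4 CPM (log2 fold change 2.28, adjusted p = 2.15e-08). Only 3 of the 10 leukocyte markers have a row, and these summed to 2 to 6 counts per library. With counts on the opposite strand this does not show that leukocyte transcripts are absent. VAT1L rose from 37.9 ± 2.88 to 174 ± 7.91 CPM (log2 fold change 2.19, adjusted p = 5.83e-10) and had the smallest relative spread of these genes in VT107. LINGO2, a neuronal leucine-rich repeat protein, had 22, 17 and 25 in DMSO and 88, 97 and 138 in VT107 (log2 fold change 2.11, adjusted p = 1.45e-06). SMPD3, a neutral sphingomyelinase, had 14, 8 and 8 in DMSO and 53, 42 and 56 in VT107 (log2 fold change 2.10, adjusted p = 1.43e-05). In GENCODE 29 a gene of the opposite strand overlaps UNC5C, TMX4, LINGO2 and SMPD3. None of these 24 calls was lost in an alternative fit that held the gene. UNC5C, MUC16, SMPD3, MFAP5, TM4SF20 and MGLL were not in the fit that asked for 10 counts in at least 2 libraries of each group.

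Integrins, the receptors that tie cells to matrix, moved in both directions. ITGB6, which pairs with the alpha-v subunit to bind latent TGF-beta, had counts of 62, 45 and 32 in DMSO and 248, 182 and 244 in VT107 (log2 fold change 2.06, SE 0.18, adjusted p = 1.81e-08), and ITGB8, another alpha-v partner with the same ligand, had 119, 93 and 95 in DMSO and 485, 312 and 435 in VT107 (log2 fold change 1.77, SE 0.15, adjusted p = 1.9e-08). ITGA11, a collagen receptor subunit, had at most 11 counts and log2 fold change -1.69 (adjusted p = 0.0463), a call lost with no filter, DESeq2 and voomWithQualityWeights and without any 1 library other than DMSO replicate 1. Without DMSO replicate 3 its log2 fold change was -1.05. These 3 are the members that passed of 5 tested without overlap. Matrix genes other than collagens had 3 of 16 lower and none higher with a median of -0.21, namely MFAP5, CCDC80 and the laminin chain LAMA3 (log2 fold change -0.38, adjusted p = 0.0469), whose call was lost with RLE factors, the filter of 10 counts and DESeq2 and without DMSO replicate 1 or 2 or VT107 replicate 2 or 3. Of 9 collagens 2 fell and none rose. COL4A4, a basement membrane chain, had 46, 46 and 28 in DMSO and 25, 11 and 8 in VT107 (log2 fold change -1.66, adjusted p = 0.000533), and COL21A1 at most 7 counts (log2 fold change -2.11, adjusted p = 0.0169), a call lost with no filter, with DESeq2 and without DMSO replicate 2 or VT107 replicate 2 or 3.

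Of 8 metalloprotease and inhibitor genes tested without overlap 2 fell and none rose, and of the 8 overlapped members 3 rose and 1 fell. ADAMTS12, which cuts cartilage matrix proteins, had counts of 240, 216 and 206 in DMSO and 97, 83 and 87 in VT107 (log2 fold change -1.53, SE 0.14, adjusted p = 5.48e-08), and ADAMTS15, which cuts proteoglycans, had 188, 123 and 94 in DMSO and 67, 43 and 26 in VT107 (log2 fold change -1.79, SE 0.23, adjusted p = 5.78e-06). The groups do not overlap in either gene, and the median of the 8 was -0.24. Another member, ADAMTS6, did not pass (log2 fold change -1.34, adjusted p = 0.0655). In the row of SYN3, which counts reads on the strand of the metalloprotease inhibitor TIMP3, counts were 896, 1132 and 1374 in DMSO and 506, 415 and 558 in VT107 (log2 fold change -1.45, SE 0.18, adjusted p = 3.18e-06), with 2 further genes on that strand. Actin cytoskeleton and SRF target genes had 3 of 12 lower and none higher, with a median of -0.43. The actin cross-linker ACTN1 fell from 48.5 ± 4.05 to 24.5 ± 4.64 CPM (log2 fold change -0.98, adjusted p = 0.0011), the tropomyosin TPM3 from 52.2 ± 1.32 to 31.8 ± 4.97 CPM (log2 fold change -0.71, adjusted p = 0.00834) and the nonmuscle myosin heavy chain MYH9 from 148 ± 19.1 to 103 ± 11.7 CPM (log2 fold change -0.52, adjusted p = 0.0123), the last of which lost its call without DMSO replicate 1 or VT107 replicate 2 or 3. Without DMSO replicate 3 or VT107 replicate 1, 5 actin genes passed.

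Genes that mark mesothelial cells moved in both directions, and among those without overlap more rose than fell. Of 9 mesothelial and keratin genes tested without overlap, 5 rose and 2 fell, with a median of 0.39. Of the 6 overlapped members none rose and 1 fell. CALB2, which encodes calretinin and is a diagnostic marker of mesothelioma, had counts of 399, 330 and 307 in DMSO and 838, 795 and 719 in VT107 (log2 fold change 0.96, SE 0.13, adjusted p = 1.46e-05). MUC16, given above, rose too, and the calretinin groups do not overlap. The members that fell were UPK1B, a uroplakin, with 120, 109 and 84 in DMSO and 61, 50 and 47 in VT107 (log2 fold change -1.20, SE 0.17, adjusted p = 2.04e-05), and EFEMP1, the secreted protein fibulin-3, with 355, 289 and 184 in DMSO and 219, 180 and 143 in VT107 (log2 fold change -0.82, SE 0.16, adjusted p = 0.000887). In the list of epithelial to mesenchymal transition genes 2 of 7 rose and 1 fell. The mesenchymal cadherin CDH11 rose from 475 ± 63.5 to 834 ± 132 CPM (log2 fold change 0.81, adjusted p = 0.000367), the tight junction gene CLDN1 from 3.36 ± 1.57 to 10.8 ± 4.86 CPM (log2 fold change 1.61, adjusted p = 0.0161), a call lost without DMSO replicate 3 or VT107 replicate 3, and the desmosome gene PKP2 fell from 444 ± 28.9 to 194 ± 23.6 CPM (log2 fold change -1.19, adjusted p = 1.39e-06).

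Guidance receptors and ligands, which steer axons and other migrating cells, had 6 of 22 higher and 2 lower, with a median of 0.16, and without DMSO replicate 2 a total of 5 passed. EPHA7, an ephrin receptor, had counts of 2, 3 and 3 in DMSO and 36, 28 and 35 in VT107 (log2 fold change 3.35, SE 0.41, adjusted p = 3.31e-06). ROBO1, a receptor for SLIT proteins, had 284, 331 and 248 in DMSO and 493, 504 and 527 in VT107 and rose (log2 fold change 0.60, adjusted p = 0.00261), and its ligand SLIT2 fell from 128 ± 16.2 to 72.6 ± 7.24 CPM (log2 fold change -0.82, adjusted p = 0.000351). ERBB receptors and ligands had 9 members tested without overlap, of which 2 fell and 1 rose. ERBB3, the receptor of NRG1, had 31, 29 and 21 in DMSO and 13, 5 and 7 in VT107 (log2 fold change -1.90, SE 0.35, adjusted p = 0.000397), so that ligand and receptor were both lower. ERRFI1, a feedback inhibitor of EGFR, rose from 45.6 ± 10.9 to 69.8 ± 7.73 CPM (log2 fold change 0.60, adjusted p = 0.0207), a call lost without DMSO replicate 2 or 3 or VT107 replicate 3. Of 17 other receptor tyrosine kinases and ligands only AXL and INSR passed.

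Genes that FOXO factors switch on when PI3K signaling is low had 4 of 14 higher and 1 lower, with a median of 0.64. Besides FBXO32, the factor gene FOXO1 had counts of 46, 45 and 32 in DMSO and 103, 78 and 106 in VT107 (log2 fold change 1.00, SE 0.19, adjusted p = 0.000464), and the insulin receptor INSR had 31, 21 and 15 in DMSO and 54, 44 and 53 in VT107 (log2 fold change 0.95, SE 0.25, adjusted p = 0.00799). ERBB3, also on this list, was the member that fell, and of all 14 members 10 lay above 0 and 4 below. Genes of the TGF-beta and BMP pathway split evenly, with 3 of 19 higher and 3 lower. Among them the receptor gene TGFBR1 fell (log2 fold change -0.91, adjusted p = 0.00304) and ACVR1 rose (log2 fold change 0.77, adjusted p = 0.00399). Among the 3 GLI pathway genes that passed of 5, GLI3 had 111, 142 and 127 in DMSO and 307, 274 and 312 in VT107 (log2 fold change 1.00, SE 0.15, adjusted p = 2.75e-05) while GLI2 fell from 191 ± 33.1 to 123 ± 13.1 CPM (log2 fold change -0.63, adjusted p = 0.00384). SUFU, which restrains GLI proteins, had log2 fold change 0.57 (adjusted p = 0.0218), a call lost with DESeq2 and without DMSO replicate 1 or 2 or VT107 replicate 3. Of 8 WNT genes 2 fell and 1 rose, and the repressor TCF7L1 had 41, 37 and 32 in DMSO and 22, 12 and 8 in VT107 (log2 fold change -1.61, adjusted p = 0.000517). The call of AXIN1 (log2 fold change -0.65, adjusted p = 0.0478) was lost without any 1 library other than VT107 replicate 2, and also with RLE factors, the filter of 10 counts, DESeq2, voomWithQualityWeights and an offset for gene span. That of APC (log2 fold change 0.56, adjusted p = 0.0348) was lost with DESeq2 and without DMSO replicate 1 or 3 or VT107 replicate 2 or 3. None of 4 Notch genes passed by edgeR, with a median of 0.02.

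FOSL1, an AP-1 subunit whose gene responds to ERK signaling, has the opposite-strand gene CCDC85B within 5000 bases. FOSL1 had counts of 95, 93 and 84 in DMSO and 38, 31 and 38 in VT107 and the groups do not overlap (log2 fold change -1.57, SE 0.19, adjusted p = 2.01e-06). It was the only 1 of 3 AP-1 genes that passed, and with EPHA4 (log2 fold change -0.47, adjusted p = 0.0226) 1 of 2 among 6 ERK feedback genes, the call of EPHA4 being lost without DMSO replicate 2 or 3 or VT107 replicate 1. In the RAS pathway the exchange factor SOS2 rose from 47.9 ± 3.98 to 84.6 ± 4.71 CPM (log2 fold change 0.83, adjusted p = 0.000525) and BRAF from 178 ± 9.84 to 239 ± 18.8 CPM (log2 fold change 0.42, adjusted p = 0.0256), and none of 17 fell. The call of BRAF was lost without DMSO replicate 1 or 2 or VT107 replicate 1 or 3. SOS2 and BRAF are the 2 rises among 17 genes, beside 8.41% of all genes without overlap that rose.

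The lists of immunity are given beside the 8.41% of all genes without overlap that rose and the 9.6% that fell. Complement factor CFI, which inactivates C3b, had counts of 105, 116 and 55 in DMSO and 403, 332 and 367 in VT107 (log2 fold change 1.79, SE 0.17, adjusted p = 4.96e-08), and C3 had 240, 242 and 170 in DMSO and 436, 453 and 450 in VT107 (log2 fold change 0.83, SE 0.14, adjusted p = 0.000121). These were 2 of 7 complement genes, none of which fell. Of 12 interferon response and MHC class I genes 4 rose and 1 fell, with a median of 0.44. TAPBP, which loads peptides on MHC class I, rose from 74.5 ± 8.01 to 128 ± 25.2 CPM (log2 fold change 0.79, adjusted p = 0.000991), the DNA sensor IFI16 from 29.3 ± 1.85 to 50.2 ± 6.7 CPM (log2 fold change 0.77, adjusted p = 0.00519) and the factor IRF2 from 32.5 ± 4.23 to 57.9 ± 10.6 CPM (log2 fold change 0.82, adjusted p = 0.00365), while the peptide transporter TAP2 fell from 396 ± 54.1 to 259.9 ± 20.8 CPM (log2 fold change -0.61, adjusted p = 0.00298). In the JAK-STAT3 list SOCS5 had 101, 105 and 94 in DMSO and 216, 191 and 197 in VT107 (log2 fold change 0.78, SE 0.14, adjusted p = 0.000318), and with STAT3 it was 1 of 2 that rose among 16, a share near that of all genes. Of 10 NF-kB and cytokine genes 3 rose, BIRC3 (log2 fold change 1.99, adjusted p = 0.000683), the TNF receptor TNFRSF9 (log2 fold change 1.31, adjusted p = 0.0123) and the adhesion molecule ICAM1 (log2 fold change 0.55, adjusted p = 0.0405), while 1 of 2 overlapped members fell. The call of ICAM1 was lost with DESeq2 and without any 1 library other than VT107 replicate 1, and that of TNFRSF9 without DMSO replicate 1 or VT107 replicate 3. Of 25 lysosome genes 2 rose, the sulfatase IDS (log2 fold change 1.52, adjusted p = 0.00133) and the mannosidase MANBA (log2 fold change 0.82, adjusted p = 0.00477), and 1 fell, the cathepsin CTSZ at 3 to 9 counts (log2 fold change -1.49, adjusted p = 0.0289), which lost its call with no filter, with DESeq2 and without any 1 of the 6 libraries. In the BCL2 family 1 of 7 passed, BCL2 itself (log2 fold change -1.22, adjusted p = 0.0154), a call lost without DMSO replicate 2 or 3 or VT107 replicate 2.

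The shares that rose and fell differed with the span of the gene. In genes without overlap that span up to 10 kb, 4.28% rose and 6.95% fell, with a median of -0.08. From 100 to 300 kb, 13.3% rose and 11.1% fell, and over 300 kb 16.5% rose and 11.2% fell with a median of 0.15. With a smooth trend of each library's counts against span taken out, 572 rose and 623 fell. What part the span has in single results was not tested beyond that fit.

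**Figure D4:**
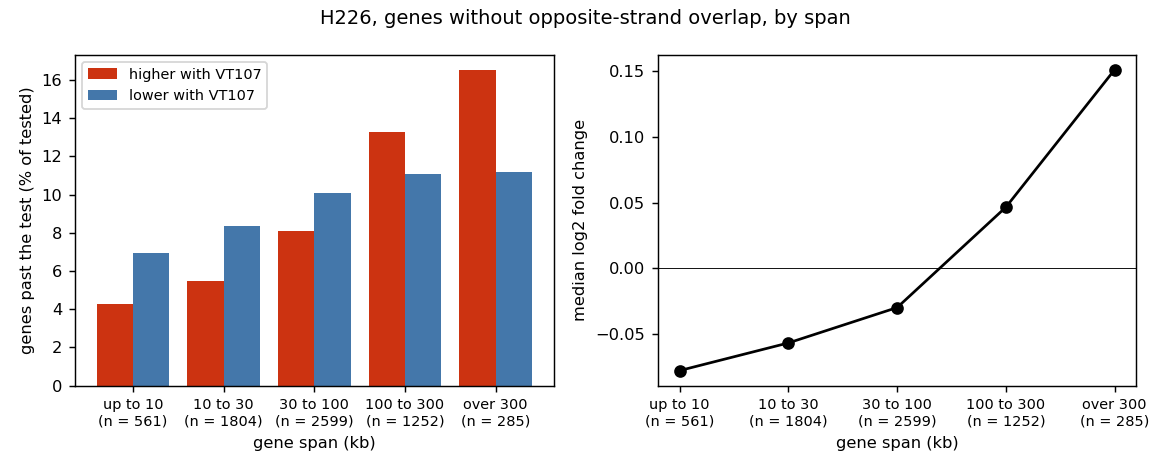
Genes without opposite-strand overlap in bins of gene span, as the percent of tested genes that rose or fell with VT107 (left, bars) and their median log2 fold change (right, points). The median passes from -0.08 in the shortest to 0.15 in the longest bin, and the share that rose from 4.28 to 16.5%.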

How the data were processed

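H226 cells were kept for 24 h in DMSO or in VT107 at 1 µM (3 biological replicates each). Per the labels the RNA was polyA RNA, and per the study's methods it was read as single-end 75-base reads on a NextSeq500. The submitters' processing notes name bcl2fastq 2.20.0.422 and hg19; the aligner, counting program, library kit and annotation release: not given in the sources used here. In each table the authors deposited raw read counts per gene beside columns of their own comparison (fold changes and p-values), which were not used, and the table keeps only genes with a result there. 16 columns of siRNA libraries matched no sample and were not used.

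The deposited counts were tested with edgeR 4.0.16 in R 4.3.3: genes with a CPM of at least 0.5 in all 6 libraries, TMM factors, the quasi-likelihood test and Benjamini-Hochberg adjustment over the 12765 genes tested. SE was taken as the absolute log2 fold change over the root of the F statistic. Each p measures the spread between 3 replicates a group. An exact permutation test of 3 against 3 cannot go below 0.1 and was not run. Overlap with a gene of the opposite strand was read from the coordinates in the tables. On simulated data for this comparison with 12765 genes, 87% of genes changed by 1 on the log2 scale and 97.8% of those changed by 2 were recovered. The changed genes were drawn only from the better-counted genes, with a spread that followed the average trend over genes. The shares therefore do not hold for genes with few counts or a spread above that trend.

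Named genes were the 12 largest rises and falls at an average log2 CPM of 4 or more with groups that do not overlap, and up to 4 members of each list. Members and lists were chosen with earlier results of these data known, and genes outside this rule were named after their values were seen. Promoters are RefSeq windows matched by symbol. Alternatives covered normalization, filters, DESeq2 1.42.0, limma 3.58.1 (voomWithQualityWeights), a replicate block, stricter overlap rules and each library left out. Library totals of 1387223 to 1726786 counts limit what can be seen in genes with few counts.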

Additional observations from a re-analysis of the deposited data

How the results depend on the processing

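Of 12765 genes tested, 2501 passed, and 1646 to 2218 passed with 1 library left out, the fewest without VT107 replicate 3. Of the 6501 genes without opposite-strand overlap, 1171 passed, 782 to 1041 with 1 library left out and 827 with DESeq2. Of the 4177 with no opposite-strand gene within 5000 bases, 797 passed. With the later GENCODE 29 annotation used to remove overlapped genes, an alternative chosen after seeing the data, 665 of 3845 passed. Fewer genes were tested there by construction. The direction of these genes, none of which passed, turned under some settings. TGFB2 had a log2 fold change of 0.33 with voomWithQualityWeights, and -0.51 to 0.575 with 1 library left out, above 0 without DMSO replicate 3, VT107 replicate 1 or VT107 replicate 3. With an offset for gene span, also chosen after seeing the data, ASAP1 had -0.025 and RBMS3 -0.049. With 1 library left out NOTCH2 ranged from -0.28 to 0.11, above 0 without DMSO replicate 1 or VT107 replicate 2, and HIST1H2AC from -0.084 to 0.71, below 0 without VT107 replicate 3. The cause was not tested.

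With the replicate block 3257 genes passed, 1540 of them without overlap. The deviations of same-numbered samples correlated at 0.20, 0.01 and 0.03. The labels do not say whether equal numbers mark a shared batch, and these values do not settle it. Over all named genes and settings, 2289 values kept their direction and side of the threshold, 105 lost the call and 82 gained one. Read origin on the opposite strand and the dependence on gene span limit every level given here.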

Other observations

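Rows of little-counted genes that hold an abundant gene on the other strand, both judged in parental H2052, give further values. They are read here as the strand of the inner gene and were chosen after their values were seen. The row of CAV3, which holds the oxytocin receptor gene OXTR, had 494, 610 and 482 counts in DMSO and 236, 206 and 277 in VT107 and fell by 1.36 on the log2 scale (adjusted p = 4.77e-07, edgeR), although C3orf32 and RAD18 share that strand. The row of RP11-305N23.1, which holds the surface glycoprotein gene THY1, had 320, 296 and 346 counts in DMSO and 289, 224 and 225 in VT107 (log2 fold change -0.62, adjusted p = 0.00335). The row of AC073283.4, which holds the noncoding RNA BCYRN1 and shares that strand with AC106869.2, fell by 1.74 (adjusted p = 7.98e-07), and that of AC119673.1, which holds the nuclear protein gene NUCKS1, by 0.52 (adjusted p = 0.0187). The row of RP11-64D24.2, which holds NNMT, an enzyme that methylates nicotinamide, and has ZBTB16 on the same strand, had 2452, 2091 and 2158 counts in DMSO and 2999, 2922 and 2987 in VT107 and did not pass (log2 fold change 0.19, adjusted p = 0.406).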
